A study of Beta vulgaris with 6 samples.

Results

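The transcripts described here are those whose probes gave a graded rather than an on-off signal. Each probe was detected in every sugar beet genotype examined and read higher in bolting-sensitive than in bolting-resistant ones. The probes were chosen by their values on the expression array. Another probe of the same gene could fail detection on some array, as given below. A probe whose name begins with P was kept if its signal was well above background on all 8 arrays, if the mean of the sensitive genotypes exceeded that of the resistant genotypes by more than 1 on the log2 scale (2-fold), and if the lowest sensitive genotype lay above the highest resistant genotype. Of 53752 probes, 29094 carry a P name and 19812 of these were well above background on all arrays. The criteria were met by 134 of the 19812 probes (0.676%), and 125 remained after 9 of 12 probes left out by name, the other 3 not having met the criteria. The mirrored criteria were met by 120 probes (0.606%). Because these values chose the probes, the contrast between the groups is given as a description, without a test.

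Sugar beet (Beta vulgaris altissima) is grown as a biennial root crop. A long period of cold, the vernalization treatment, makes the shoot apical meristem, the small dome of dividing cells at the tip of the shoot, competent to form a flowering stem. The elongation of that stem is called bolting, and genotypes differ in how readily cold induces it. In this study plants of 6 biennial genotypes were raised with 16 h of light a day, 8 weeks of them at 22 °C and then 9 weeks in the cold at 4 °C, so that all samples carry the cold treatment and no unvernalized control was hybridized. Genotypes 1, 4 and 7 have a low capacity to bolt (resistant) and genotypes 2, 3 and 5 a high capacity (sensitive). RNA from 1 shoot apical meristem per genotype was measured on a custom Agilent array with the dye Cy3, and for genotypes 3 and 7 the measurement was repeated on a further array. The 3 genotypes of a group are thus the replicates, unrelated genetic differences between genotypes cannot be told apart from bolting capacity, and the spread within a genotype between plants was not measured.

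All 8 arrays lay on 1 slide and were read in 1 scan. The 75th percentile of spot intensity ranged from 288.4 to 422.6, 42.6% to 44.97% of spots passed the flag for a signal well above background, and the number of saturated spots was 0. The faintest spot with that flag read between 17.3 and 30.2, depending on the array, which bounds how low a signal could be. None of the probes paired with a gene by the study represents a defining gene of the shoot apical meristem, so the labelled tissue could be examined only through probes for dividing cells and green tissue. P905 (histone H3, abundant in dividing cells) had a log2 signal of 5.78 ± 0.34 (SD, n = 3) in resistant genotypes, against 4.31 ± 0.47 (SD, n = 3) in sensitive ones. Of 2 probes for green differentiated tissue, P3296 (small subunit of Rubisco, the carbon-fixing enzyme of chloroplasts) was higher in sensitive and P18878 (photoprotection of photosystem II) higher in resistant genotypes. All of these probes come from the study's list of differentially expressed sequences, which was drawn from these same samples. A difference between the groups was thus built into their choice, and tissue composition is not read from it. In such bulk samples fewer cells of a type and less RNA per cell cannot be told apart.

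Throughout, a level is the log2 signal after subtraction of the 75th percentile of its array, and levels are compared between genotypes and never between probes. The difference is the sensitive mean minus the resistant mean. The gap is the lowest sensitive minus the highest resistant genotype, and it is above 0 for every member by the choice of members. Over the 125 members the difference ranged from 1.00 to 5.77 with a median of 1.67 (3.18-fold), against a median of -0.01 over the 19812 probes. It was below 1.5 in 57 members, between 1.5 and 2 in 23, between 2 and 3 in 37 and above 3 in 8. The gap ranged from 0.0070 to 5.25 with a median of 0.17. It was below 0.1 in 49 members, between 0.1 and 0.5 in 41, between 0.5 and 1 in 23 and above 1 in 12. Most members were therefore separated by a narrow margin, even where the means differed several-fold.

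**Figure D1:**
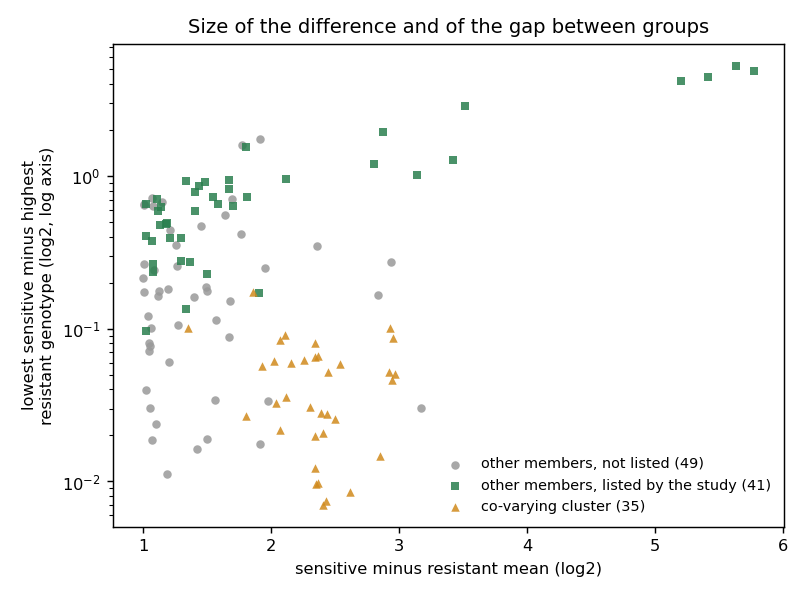
Difference between the group means (x axis, log2) against the gap between the nearest genotypes of the groups (y axis, log2 units on a log axis) for the 125 members, 1 point per probe. Squares are members listed by the study, and triangles are 35 members that share a profile over the genotypes, which combined differences of 1.34 to 2.97 with gaps of at most 0.17.

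The error of the array itself was small beside most of these values. Over the members the SD between duplicate arrays was 0.055 in genotype 3 and 0.078 in genotype 7, and 0 member spots were flagged as outlier, saturated or not significant. The gap exceeded the difference between duplicate arrays of both genotypes in 84 members and did not in 41. With every array taken singly, the 4 sensitive arrays lay above the 4 resistant arrays for 124 members, where 2.9% of the 19812 probes did so. The choice of members nearly fixes this count, as 4 of the 6 genotypes have 1 array each, and nothing is read from it. P15508 was the exception, as 1 array of genotype 7 read 2.31 while genotype 5 read 2.20.

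The order of the genotypes inside a group is not part of the criteria, but its counts over all members are weighted by 35 members that share a profile over the genotypes, so each is followed by its value in the other 90. The SD of the resistant genotypes exceeded that of the sensitive genotypes in 93 members (74.4%, against 55.5% of the 19812 probes), with medians of 0.85 and 0.52, and in 60 of the other 90 (66.7%). Genotype 1 was the highest of the resistant genotypes in 78 members (62.4%, against 32.4%) and genotype 4 the lowest in 69 (55.2%, against 32.6%). All 35 had this order, and among the other 90 the counts were 43 (47.8%) and 34 (37.8%), with genotype 7 the lowest in 35. Genotype 3 was the highest of the sensitive genotypes in 64 members (51.2%, against 32.1%) and genotype 2 the lowest in 59 (47.2%, against 37.8%). Of the 35, genotype 3 was highest in 32 and genotype 2 lowest in all. Among the other 90, genotype 3 was highest in 32 (35.6%) and genotype 2 lowest in 24 (26.7%), a smaller share than over the 19812 probes. Within the sensitive group, genotypes 3 and 5 were close, with a median absolute difference of 0.21 over the members, while genotype 2 differed from genotype 3 by 0.63 and from genotype 5 by 0.73. Among the other 90 members these medians were closer, at 0.33, 0.39 and 0.36. Within the resistant group the corresponding medians were 1.24 between genotypes 1 and 4, 1.00 between genotypes 4 and 7 and 0.92 between genotypes 1 and 7, and 0.62, 0.58 and 0.54 among the other 90. For comparison, genotypes 1 and 2, which belong to different groups, differed by a median of 0.89, and by 1.25 among the other 90. Over the 19812 probes the median was 0.31 between genotypes 3 and 5, 0.30 between 2 and 3 and 0.34 between 2 and 5. It was 0.41 between genotypes 1 and 4, 0.33 between 4 and 7, 0.35 between 1 and 7 and 0.31 between 1 and 2.

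**Figure D2:**
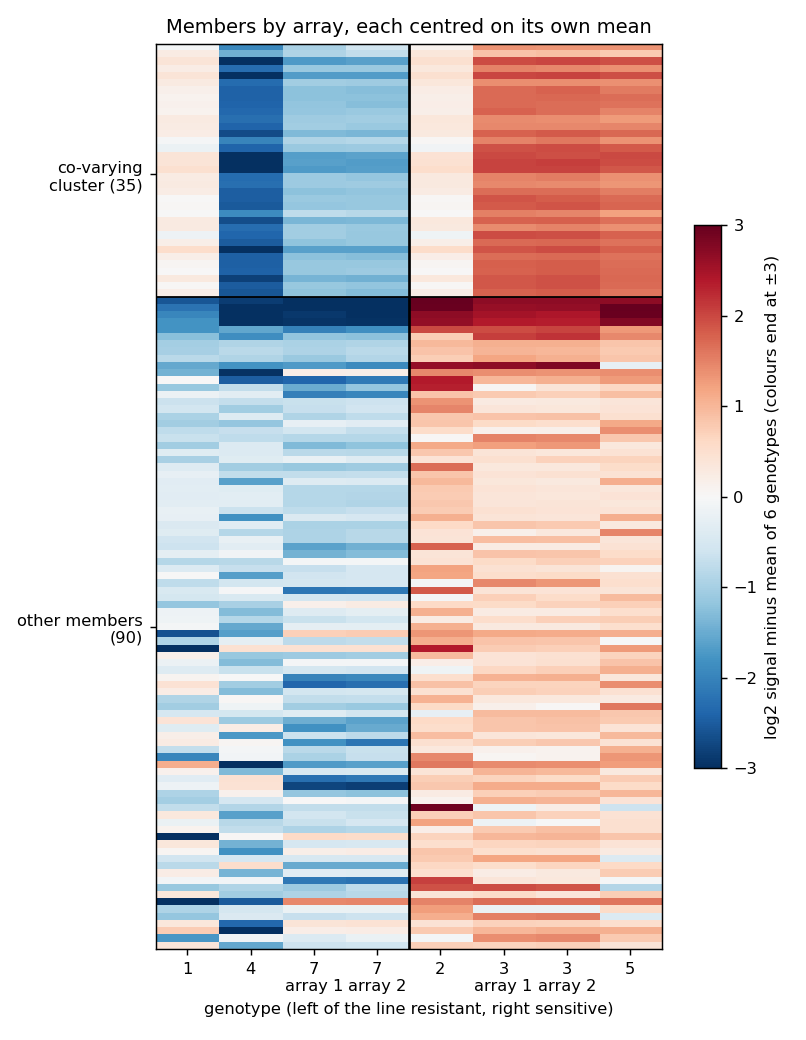
Log2 signal of each member (rows) on each of the 8 arrays (columns), centred on the mean of the 6 genotypes. The upper block holds 35 members in which resistant genotype 1 and sensitive genotype 2 lay within 0.17 of each other, and the lower block the other 90, sorted by gap from the largest.

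When the 6 values of a member were sorted, the largest step between neighbours fell between the groups in 20 members (16.0%, against 0.384% of the 19812 probes; the choice of members favours this position). In the other 105 it fell inside a group, in 65 among the resistant and in 40 among the sensitive genotypes. The most frequent position set genotypes 4 and 7 below the other 4 genotypes, in 30 members, 21 of which are among the 35 that share a profile. In 18 members only genotypes 3 and 5 stood high, 14 of them again among the 35. In 15 genotype 4 alone stood low, in 9 genotype 7 alone stood low and in 8 genotype 2 alone stood high, none of them among the 35. Among the other 90 members the step between the groups (20) and genotype 4 alone low (15) were thus the most frequent positions. Of the 20 members with the step between the groups, 13 were on the study's list of differentially expressed sequences. The way that list was made favours such members, as given below, and nothing is read from this count.

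That list, which holds 169 sequences with the best match in Arabidopsis and the beet gene model, gives 42 members a name (33.6% of the members and 24.9% of the list), and 35 of these have an Arabidopsis match. The study drew the list from these same samples, so that presence on it is not independent evidence. Besides a 2-fold change, the study required a significant difference between the groups. The list thus favours members whose groups are tight and well separated. All 12 probes left out by name are on the list, 4 of them in primary and redox metabolism and 2 in cold, drought and osmotic stress, and they are counted below as non-members. The remaining 83 members were not on the list and are given by probe name. Listed members had a median gap of 0.66 and unlisted members one of 0.08, while their median differences were 1.46 and 1.77. Of the 12 members with a gap above 1, 10 were listed. Of the 48 unlisted members with a gap below 0.1, 32 are among the 35 that share a profile. A wider gap of listed members was favoured by the way the list was made, so these values are a description only.

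The widest separations were found for a gene of RNA splicing and for a retroelement. P27716 (BI096077) matches small nuclear ribonucleoprotein F (RUXF, AT4G30220; gene model Bv_53540_ommo), a core protein of the spliceosome. Its levels were -0.50, -0.77 and -0.96 in resistant genotypes 1, 4 and 7 and 5.16, 4.76 and 4.74 in sensitive genotypes 2, 3 and 5. The groups were tight, each with an SD of 0.23, and lay 5.25 apart, the largest gap among the members, with a difference of 5.63 (49.5-fold). The duplicate arrays of P27716 read 4.76 and 4.77 in genotype 3 and -0.96 and -0.95 in genotype 7.

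A group of 3 probes, P23676 (BQ489705), P22803 (BQ490579) and P793 (FG343330), lie on 1 gene model, Bv4_076620_qrft, and thus are not independent of each other. P793 matches a retroelement pol polyprotein, the product with which such mobile elements copy themselves, and the other probes have no significant Arabidopsis match. P23676 had the largest difference of all members, with levels of 1.18, 0.30 and 0.08 in genotypes 1, 4 and 7 and 6.37, 6.02 and 6.47 in genotypes 2, 3 and 5. The means were 0.52 ± 0.58 (SD, n = 3) and 6.29 ± 0.23 (SD, n = 3), a difference of 5.77 (54.5-fold). For P22803 the levels were 2.12, 0.84 and 0.96 in the resistant genotypes, against 6.55, 6.27 and 6.69 in the sensitive ones. For P793 they were -0.08, -1.33 and -1.07 in the resistant genotypes, against 4.57, 4.34 and 4.83 in the sensitive ones. On all 3 probes genotype 1 was the highest of the resistant genotypes and genotype 3 the lowest of the sensitive ones, and the gap stayed above 4. A further probe matching a mobile element, P26111 (transposable element gene), belonged to the members with a narrower gap of 0.28, as its resistant levels of 2.27, 2.89 and 2.41 approached the 3.17 of genotype 5, below the 4.27 and 4.01 of genotypes 2 and 3.

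**Figure D3:**
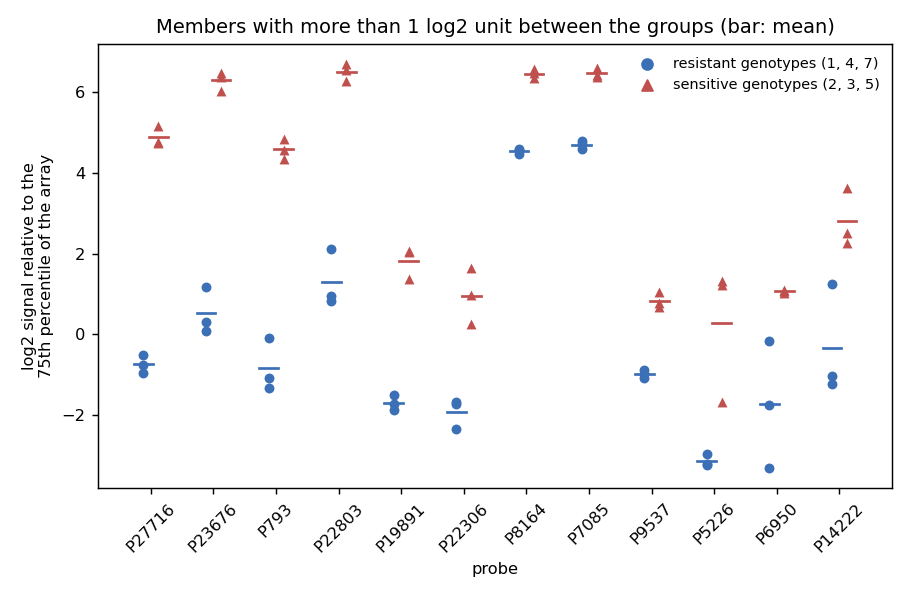
Log2 signal of the 12 members with a gap above 1, ordered by gap. Circles are the resistant and triangles the sensitive genotypes, 3 each, with a bar at the mean; P27716, P23676, P793 and P22803 are more than 4 log2 units apart, and P5226 shows 1 sensitive genotype far below the others.

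Of the 112 listed sequences placed in a functional group, 24 belonged to primary and redox metabolism, the largest group. Of these 24, 8 were members, 7 others were higher in sensitive genotypes and 9 were higher in resistant genotypes. Over the whole list 42 of 169 sequences (24.9%) were members and 80 were higher in sensitive genotypes. The counts by function here and below are a description beside those shares. P19891 matches the phosphoglycerate mutase family, whose glycolytic members move a phosphate group within phosphoglycerate. Its levels were -1.73, -1.50 and -1.87 in genotypes 1, 4 and 7 and 2.04, 2.05 and 1.36 in genotypes 2, 3 and 5, a difference of 3.52 (11.4-fold) with a gap of 2.86. P5226 matches AT4G26850, which in Arabidopsis carries out a step of ascorbate synthesis. Its resistant levels of -2.96, -3.22 and -3.23 were alike, whereas the sensitive levels were 1.21, 1.32 and -1.68, so that genotype 5 stood between the resistant genotypes and the other sensitive ones. P22361 (NAD(P)-binding Rossmann-fold protein) likewise had 1 sensitive genotype apart, with -0.37 in genotype 2 but -2.47 and -2.08 in genotypes 3 and 5, above resistant levels of -3.82, -3.42 and -4.02. Its duplicate arrays differed by 0.32 in genotype 3 and 0.35 in genotype 7. The resistant levels of P5226 and P22361 lay not far above the faintest signals accepted, which limits how far they could spread or fall. P28941 (nucleoside diphosphate kinase 1, which balances nucleoside triphosphate pools) had a difference of 1.67 and a gap of 0.82. The remaining 4 members of the group had differences between 1.06 and 1.37 and gaps of 0.24 to 0.48. These were P13424 (glyoxylate reductase 2), P14931 (epoxide hydrolase), P2490 (an aldo-keto type oxidoreductase) and P27928 (glutathione S-transferase TAU 20, a detoxifying enzyme).

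Of the 9 listed sequences for cell wall, lipids and membrane, 6 were members, 2 others were higher in sensitive genotypes and 1 was higher in resistant genotypes. P11137 (endoglucanase 17, of a family that cleaves cell wall glucans) had levels of -2.31, -1.70 and -2.54 in genotypes 1, 4 and 7 and -0.13, -0.01 and -0.97 in genotypes 2, 3 and 5. The difference was 1.81 (3.503-fold), and genotype 5 was the sensitive genotype nearest the resistant ones. P12265 and P24415 match cyclopropane-fatty-acyl-phospholipid synthase, which modifies the chains of membrane lipids, and lie on the same gene model, Bv3_049000_uwgr. Their differences were 1.17 and 1.10, with gaps of 0.48 and 0.71. P19474 (Tetraspanin6, a membrane protein) had a difference of 1.498, and its sensitive levels ranged from -0.97 in genotype 3 to 0.51 in genotype 5. P28380 (lipid-transfer protein) and P9573 (BRO1-like domain protein of endosomal sorting) had differences of 1.08 and 1.33 and gaps of 0.26 and 0.13.

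Hormone-related sequences counted 3 members of 9 listed, with 3 others higher in sensitive and 3 higher in resistant genotypes. Of the 6 higher in sensitive genotypes 1 was left out by name. P16535 and P26490 share the best match CYP714A1 (AT5G24910), a cytochrome P450 that inactivates gibberellins, hormones of stem elongation, in Arabidopsis, but lie on separate beet gene models. P16535 had levels of 0.36, 0.45 and -0.17 in genotypes 1, 4 and 7 and 1.39, 1.59 and 1.07 in genotypes 2, 3 and 5. P26490 had levels of 3.16, 3.52 and 2.86 in the resistant genotypes, against 4.12, 4.66 and 4.11 in the sensitive ones. In both, genotype 3 was the highest sensitive, genotype 4 the highest and genotype 7 the lowest resistant genotype, and the differences were 1.14 and 1.12. P517, a gibberellin-regulated protein (AT1G74670), had 4.64, 4.59 and 4.09 in the resistant genotypes, against 5.74, 5.34 and 5.29 in the sensitive ones, a difference of 1.02 that lies just inside the threshold. The unlisted probes P273, P391 and P25539 followed P517 closely, with differences of 1.01, 1.00 and 1.07 and gaps of 0.65, 0.65 and 0.72.

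RNA processing and translation contributed 3 members of 14 listed sequences, 8 of which were higher in resistant genotypes. Over the whole list, 80 of 169 sequences were higher in sensitive genotypes. Besides RUXF, P17475 (RNA-binding RRM family protein) had resistant levels of -1.62, -1.05 and -1.51 and sensitive levels of 0.13, 0.18 and -0.19. P27257 (60S ribosomal protein L8-3, of the large ribosomal subunit) was even in the sensitive genotypes, at 6.28, 6.17 and 6.33, and uneven in the resistant ones, at 5.24, 5.10 and 3.43. Genotype 7 was thus far below genotypes 1 and 4, and the difference was 1.67. The group set here for cold, drought and osmotic stress held 17 listed sequences, of which 3 were members and 10 were higher in resistant genotypes. These members were P17628 (ERD7, a dehydration- and senescence-related protein), with an SD of 0.03 over the resistant genotypes, P1893 (a dehydrin, a protein that accumulates in cells losing water) and P8652 (pathogenesis-related protein), with differences of 1.33, 1.40 and 1.21.

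Signalling sequences gave 3 members of 10, with 6 higher in resistant genotypes. In all 3 the resistant genotypes were nearly equal and the sensitive genotypes spread. P21747 (the receptor-like kinase MRH1, known from root hairs of Arabidopsis) had 0.10, 0.01 and -0.08 in genotypes 1, 4 and 7 and 0.83, 2.24 and 1.59 in genotypes 2, 3 and 5. P12548 (GTP-binding protein) had an SD of 0.06 over the resistant and 0.64 over the sensitive genotypes, and P21516 (tyrosine phosphatase-like protein) had 0.05 and 0.51. The reverse was seen for both members of specialized metabolism, acyltransferases that join acyl groups to small molecules. P6950 (HXXXD-type acyl-transferase) had sensitive levels of 1.10, 1.03 and 1.07 and resistant levels of -1.75, -3.31 and -0.15. P13786 (N-hydroxycinnamoyl/benzoyltransferase-like) had an SD of 0.07 over the sensitive and 0.73 over the resistant genotypes. Specialized metabolism as a whole held 9 listed sequences, of which 5 were higher in resistant genotypes and 2 were left out by name. The higher level of the acyltransferases in sensitive genotypes is thus not shared by the whole group. P9984, which matches XRCC4, a partner of the DNA ligase that rejoins broken DNA ends, was the 1 member of 3 sequences for chromatin and DNA repair. It had -3.33, -1.47 and -2.20 in the resistant genotypes, against 0.07, -1.30 and -0.05 in the sensitive ones, which leaves 0.17 between genotypes 4 and 3. None of the 8 listed sequences for proteolysis and ubiquitin was a member, and 6 of them were higher in resistant genotypes.

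The 10 listed members in none of these groups have no Arabidopsis match (7) or match an uncharacterized protein (3); P23676 and P22803 are among the former. P22306 (BQ582695, no match) had resistant levels of -1.73, -2.34 and -1.68 and sensitive levels of 0.26, 1.64 and 0.97, with a gap of 1.94. P14222 (AT5G44710) had 1.25 in genotype 1 but -1.24 and -1.02 in genotypes 4 and 7, against 3.62, 2.27 and 2.51 in the sensitive genotypes, a difference of 3.14 (8.80-fold). P9537 (no match) had narrow groups with SDs of 0.10 and 0.20 and a gap of 1.54. P25593 and P8586, on gene model Bv9_224420_ssox, rose and fell together over the genotypes, with differences of 1.58 and 1.70. P15896, P15288 and P15483 had differences of 1.48, 1.02 and 1.19. Over 5 gene models that carry several listed probes of which at least 1 was a member, 9 of 11 probes were members. The others, P9398 and P19771, were not well above background on all arrays. On all 11 the sensitive mean was higher, but its size could differ within a gene model. P9398 had a difference of 5.14, against 1.40 for P12548 on the same model. P19771 had 1.66, against 1.498 for P19474.

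A second pattern ran across unlisted members. When members were clustered by their Pearson correlation over the 6 genotypes (average linkage, distance limit 0.02, chosen after their values were seen), 35 of 125 members (28.0%) fell into 1 cluster, 41 stood alone and the next largest cluster held 8. Only 1 of the 35, P3296, was on the study's list. As probe sequences were not analysed, the 35 probes may stand for fewer transcripts, which was not tested. In this cluster the levels climbed from genotype 4 over genotype 7 to genotype 1 in the resistant group and from genotype 2 to the similar genotypes 5 and 3 in the sensitive group, with no break between the groups. Genotype 1 exceeded genotype 4 by a median of 2.55 and genotype 7 by 1.34, and genotype 3 exceeded genotype 2 by 1.503, whereas genotype 2 exceeded genotype 1 by a median of only 0.05, with a range of 0.0070 to 0.17. These steps inside the groups were thus larger than the step between them, although the median difference of 2.35 (5.09-fold) was above that of the other 90 members, 1.38.

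P19253, for example, had levels of 6.74, 3.20 and 4.67 in genotypes 1, 4 and 7 and 6.83, 8.36 and 8.28 in genotypes 2, 3 and 5. P17631 had 6.66, 3.07 and 4.61 in the resistant genotypes, against 6.71, 8.31 and 8.21 in the sensitive ones. A like profile, with genotypes 3 and 5 close to each other, was seen in P23050, P26667, P25062, P25782 and P25341, which with these probes make up 7 of the 10 largest differences among unlisted members, and in P25185 and P23139, which are among the 5 unlisted members of highest level. P25103 and P25341 had the most alike deviations from the group means of all 7750 pairs of members (Pearson r = 0.99998 over 6 genotypes hybridized to the same arrays, a description only), followed by P19253 with P26667, P23435 with P24372, P23078 with P23435, and P22783 with P25104. All 5 pairs lay inside the cluster. Over all pairs the median of this correlation was 0.09, and 804 pairs exceeded 0.9.

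P3296, the Rubisco small subunit fixed here as a marker of green tissue, had the same profile. Its levels were -1.49, -3.36 and -2.21 in genotypes 1, 4 and 7 and -1.31, -0.09 and -0.09 in genotypes 2, 3 and 5, and it correlated at 0.995 with the mean profile of the cluster, of which it is a part. The other green tissue probe, P18878, did not follow it: its levels were 2.81, 2.55 and 2.61 in the resistant genotypes, against 1.34, 1.25 and 1.34 in the sensitive ones, with a correlation of -0.74. P905 (histone H3) had 6.17, 5.54 and 5.64 in the resistant genotypes, against 3.78, 4.45 and 4.69 in the sensitive ones, with a correlation of -0.50. The part of tissue composition in the profile was not tested.

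**Figure D4:**
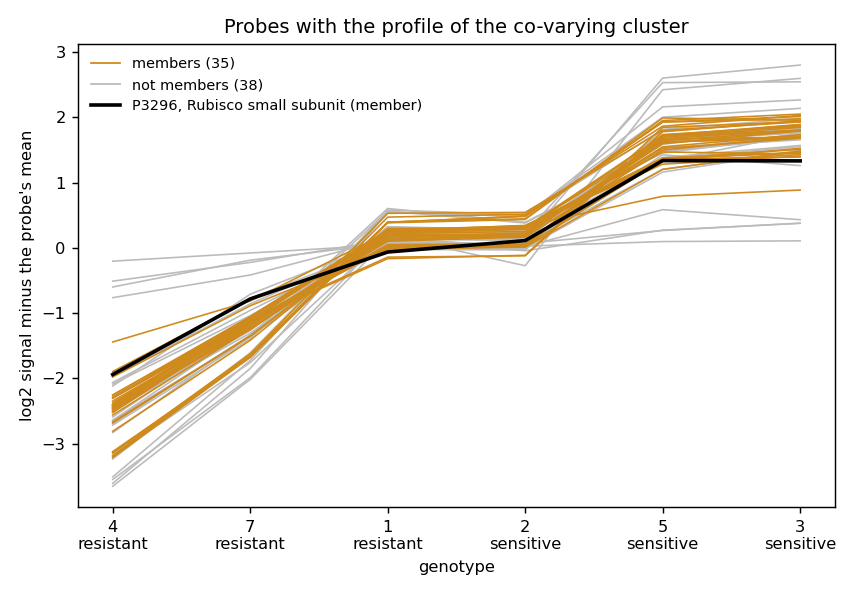
Log2 signal minus the mean of the probe for the 73 probes whose profile over the 6 genotypes (x axis) correlated above 0.98 with the mean of the 35-member cluster, 35 of them members and 38 not. The lines climb from genotype 4 to genotype 1, run level from genotype 1 (resistant) to genotype 2 (sensitive) and climb again to genotypes 5 and 3; the black line is P3296.

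Whether a probe with this profile became a member turned on genotypes 1 and 2. Among the 19812 probes, 73 correlated above 0.98 with the mean profile, and 69 of these had a difference above 1. The 69 comprised the 35 members and 34 probes whose groups overlapped, with gaps from -0.47 to -0.0020. Genotype 2 lay above genotype 1 in 36 of the 73 probes and not above it in 37. The SD per array over these probes was 0.048, and in 24 of the 35 members the gap did not exceed the larger difference between duplicate arrays. Scaling each array to its median in place of its 75th percentile moved the median difference of all 19812 probes by -0.12, and genotype 2 then lay above genotype 1 in 1 of the 35 members, in 20 with quantile normalization and in 19 with normexp background correction. Under each of these scalings the difference of every member of the cluster stayed above 1. Their place among probes with non-overlapping groups therefore depended on the scaling, and the direction of their group means did not.

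The remaining clusters of 3 or more members were small; probes named only for their cluster were chosen after their values were seen. A cluster of 8 had its step between the groups: P27716, P23676, P22803, P793, P19891, P9537 and the unlisted P8164 and P7085. P8164 had 4.47, 4.59 and 4.57 in the resistant genotypes, against 6.46, 6.57 and 6.34 in the sensitive ones, and P7085 had 4.59, 4.78 and 4.71 against 6.43, 6.59 and 6.37. With SDs of at most 0.12 and gaps of 1.74 and 1.60, these were the 2 unlisted members with a gap above 1. A like profile was seen in P2166 (cysteine proteinase inhibitor 6), a listed probe left out by name. It had 4.485, 4.655 and 4.594 in genotypes 1, 4 and 7, against 6.469, 6.652 and 6.308 in genotypes 2, 3 and 5. Whether P8164 and P7085 measure the same transcript as P2166 was not tested. In a cluster of 5 (P1192, P16843, P18015, P8245 and P8573) genotype 4 was lowest and genotype 7 next, and the gap was at most 0.24. P16843 had the widest range of these, with 1.10 in genotype 4, 3.11 in genotype 7 and 5.87 in genotype 1, just under the 6.04 of genotype 5. In P16776, P17918 and P1892 genotype 7 stood below all others. A further cluster joined P8652 with the unlisted P25402 and P25558.

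In other unlisted members the genotypes of 1 group were uneven. P15381 had -3.67 in genotype 1, not far above the faintest signals accepted, but 2.12 and 2.11 in genotypes 4 and 7. Its sensitive levels were 4.04, 2.39 and 2.94. P7963 had -1.96 and -0.76 in genotypes 1 and 4, while genotype 7 at 3.21 was next to the 3.24, 3.41 and 3.36 of the sensitive genotypes, a gap of 0.03. The opposite was seen in P8480, chosen after its values were seen, where genotype 2 at 2.35 stood alone and genotypes 3 and 5, at -0.53 and -1.19, were near the resistant levels of -1.31, -1.46 and -1.32. In P15508, likewise chosen afterwards, genotypes 2 and 3 read 4.97 and 5.00 and genotype 5 read 2.20, against 1.94, 2.17 and 2.15. P10537 and P86, with gaps of 0.71 and 0.67, had all 3 sensitive genotypes clear of the resistant ones.

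The threshold did not coincide with any break in the values. Just inside the limit on the difference were P24863, P1925 and P391 at 1.0004, 1.0019 and 1.0039. Just outside it were P6974, P19117 and P7010 at 0.997, 0.996 and 0.994. For the gap, P25375, P24622 and P25341 lay inside at 0.0070, 0.0074 and 0.0086, and P8307, P28625 and P6027 outside at -0.0010, -0.0020 and -0.0025. The latter steps are smaller than the SD per array given above.

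**Figure D5:**
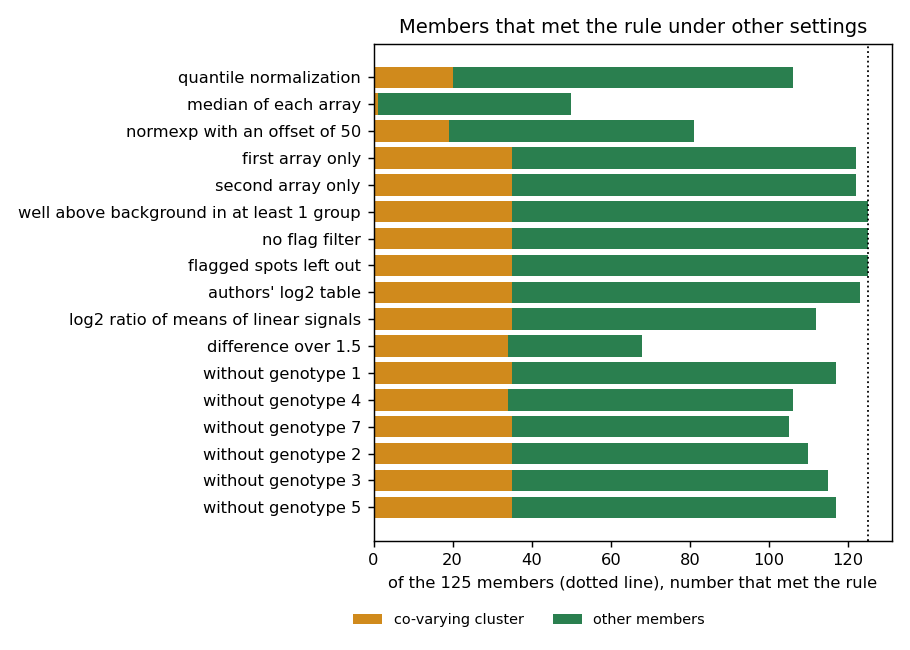
Of the 125 members (dotted line), the number that met the criteria under each other setting (x axis), split into the 35-member cluster and the other 90. Scaling to the median of each array kept 1 of the 35 and 49 of the 90, and leaving out a genotype kept between 105 and 117 of the 125.

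The criteria themselves leaned on the array scaling and on the number of genotypes. Scaling to the median of the array left 50 of the 125 members, and 49 of these lay outside the cluster of 35. Quantile normalization left 106 and normexp background correction 81. With genotype 1 left out, 454 probes met the criteria, and 117 of the 125 members were among them.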

How the data were processed

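Total RNA of the shoot apical meristems was hybridized to Agilent 1-colour arrays. The authors deposited for each array the intensity of every spot on a linear scale, background-subtracted and spatially detrended by Feature Extraction 10.7.3.1 and not normalized between arrays, with quality flags, which are other values of 0 or 1. The authors also deposited a log2 table, scaled on the 75th percentile of an array and centred on the median of a probe, used here as an alternative. Groups follow the capacity to bolt in the sample labels.

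The log2 intensity of non-control spots was reduced by the 75th percentile found on the same array, then spots of a probe and duplicate arrays of a genotype were averaged. Members and functional lists were chosen with earlier results of these data known. No test was run on the contrast that chose the members; the number of genotypes limits the precision. All listed members were named; of the others, the 10 largest differences, 5 largest gaps, 5 highest levels and 3 smallest differences, and the 3 probes just outside each limit. Names come from the annotation columns of the study's supplementary list of differentially expressed sequences, and 0 of 42 listed members matched the RefSeq gene table. The authors' fold changes were not used. Probe sequences were not analysed here.

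Alternatives were quantile normalization and normexp (offset 50, on the median spot signal) with limma 3.58.1 in R 4.3.3, the array median, other filters, single arrays, linear means, a difference over 1.5 and each genotype left out. Slide and scan were shared by all arrays and could not be a block. Python 3.11.15, pandas 2.3.3, scipy 1.17.1 and matplotlib 3.10.9 were used.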

Additional observations from a re-analysis of the deposited data

How the results depend on the processing

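The count of 125 members fell to 51 with scaling to the median of the array and to 68 with a difference over 1.5, and rose to 269 without the flag filter; under the other processing alternatives it stayed between 85 and 168. Leaving out a genotype gave 454 probes without genotype 1, 266 without 4, 209 without 7, 347 without 2, 199 without 3 and 260 without 5, as fewer genotypes have to be separated, and kept 105 to 117 of the members. The median gap ranged from 0.23 to 0.92 over the genotypes left out, the highest without genotype 1 and the next, 0.72, without genotype 2. By its definition the gap of a member cannot shrink when a genotype is left out. The members lost in this way thus fell below the limit on the difference only, and nothing is read from the wider gaps. With scaling to the array median the median gap was 0.060, 64 of the 125 members kept a gap above 0, 61 members separated on single arrays, and the share of probes meeting the criteria that were higher in sensitive genotypes fell from 52.8% to 24.8%. Without the flag filter 64 listed sequences met the criteria. The median difference stayed between 1.31 and 1.79. Of 992 alternative differences of the 62 named probes, 977 moved by less than the SD between genotypes. With normexp 13 moved further and with the array median 2, and 0 changed sign. Much of this was fixed in advance, as the flag filters leave the values of members unchanged. Because the groups of a member do not overlap, neither leaving out a genotype nor averaging linear signals can reverse its sign. Leaving out the 35-member cluster, an alternative chosen after seeing the data, left 90 members with a median gap of 0.37, and genotype 1 was then the highest resistant genotype in 47.8%. No paired analysis was possible because the contrast has no test and the labels pair no genotypes across the groups. With 1 meristem per genotype, variation between plants is unknown.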
